A study of Mus musculus with 6 samples.

Results

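The 10 genes described here belong to the MHC class I pathway and were followed across vehicle and PEox treatment of mouse intestinal group 3 innate lymphoid cells (ILC3s). They were the class I heavy chain genes H2-K1, H2-D1, H2-T23 and H2-Q7, the light chain gene B2m, the peptide transporter genes Tap1 and Tap2, the tapasin gene Tapbp, the peptide-trimming gene Erap1 and the regulator gene Nlrc5. The rows of the deposited table were matched to these symbols by mouse Ensembl identifier, which found all 10 among 55401 gene identifiers. The 6 RNA-seq libraries were of ILC3s from lamina propria of the small intestine of wild-type mice, 3 pretreated with vehicle and 3 with PEox. The labels do not spell PEox out, and neither its dose nor the exposure is given in the sources used here. The protocol text speaks of pups, whose age is not given, and of a sort for epithelial cells (EpCAM+CD45-), whereas the cell type label says ILC3s. The labels do not say that each library was a separate animal. The p-values therefore reflect the spread among these 6 libraries alone, and part or all of it may be technical.

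MHC class I molecules show short peptides from inside the cell at its surface, where T cells and natural killer cells inspect them. Proteasomes cut proteins in the cytosol, the TAP transporter carries the peptides into the endoplasmic reticulum, ERAP1 trims them, and tapasin helps to fit them onto a heavy chain paired with β2-microglobulin. Nearly all nucleated cells express these genes, interferons raise them, and NLRC5 acts at the promoters of many of them.

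The libraries held 56252806 to 66849230 counts, and the 10 genes took 1.77% to 1.95% of the counts of a library. Transcripts of ILC3s were present in every library. The 15 ILC3 markers added up to 14385 to 14656 CPM in vehicle libraries and 8134 to 8243 in PEox libraries, where CPM, the usual unit of counts scaled to library depth, was computed with TMM factors for library composition. Of these markers 8 fell and 4 rose by the edgeR test given below. Over all genes tested that test called 18.8% lower and 18.3% higher. Much of the fall of the ILC3 sum lay in Il22, which stood at 6724 CPM in vehicle and 2513 in PEox. The sum need not follow the number of ILC3s. Epithelial markers added up to 103 to 117 CPM in vehicle libraries and 62.9 to 69.3 in PEox libraries, with 3 of 9 tested falling, and Epcam reached 52.2 CPM in vehicle and 31.9 in PEox. B cell markers, all 10 of which fell, added up to 599 to 604 CPM in vehicle libraries and 185 to 187 in PEox libraries. T cell markers (7 of 11 fell, 1 rose) summed to 1053 to 1076 and 748 to 801 CPM. Most of this sum came from Trbc1 and Trbc2, at 369 and 584 CPM in vehicle and 284 and 443 in PEox. The next highest, Cd3g, stood at 73.5 and 26.5 CPM, so the sum need not follow the number of T cells. Markers of ILC1 and natural killer cells (6 of 9 fell) summed to 313 to 328 and 92.4 to 92.8 CPM. Myeloid and dendritic markers (7 of 15 fell) summed to 289.9 to 297 and 145 to 197 CPM, with the dendritic cell gene Clec9a at 0 in all libraries and Siglech at 0 in PEox. Mast cell and basophil markers (6 of 10 fell) summed to 160.0 to 165 and 21.7 to 28.6 CPM, with Mcpt8 at 0 in PEox. Cd8a of the T cell list was also at 0 in every PEox library. The enterocyte genes Fabp1 and Fabp2 and the endothelial gene Cdh5 were close to absent from both groups, with at most 11 counts in a vehicle library and 0 in PEox. Other genes of those lists were present. Pecam1 of the stromal list reached 77.0 CPM in vehicle and 92.1 in PEox. Krt8 and Krt18 of the epithelial list reached 31.1 and 19.4 CPM in vehicle and 15.5 and 13.6 in PEox. Erythroid markers (5 of 9 rose) summed to 2755 to 2802 and 5121 to 5808 CPM, and stromal markers (4 of 9 rose, 1 fell) to 247 to 270.0 and 372 to 397. The part of these cells in the results that follow was not tested, and in bulk RNA fewer cells of a type and less RNA per cell cannot be told apart.

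Class I genes did not move as a block between vehicle and PEox. By the edgeR quasi-likelihood test, with p-values adjusted over 18253 genes by the Benjamini-Hochberg method, 6 of the 10 genes fell in PEox (B2m, H2-Q7, Nlrc5, H2-K1, Tap1 and Tapbp), 1 rose (Erap1), and H2-D1, H2-T23 and Tap2 did not pass at 0.05. Over all genes tested 37.1% were called, 18.8% lower and 18.3% higher. The median log2 fold change of the 10 genes was -0.33, beside 0.00 for all genes tested, and their log2 fold changes ran from -0.62 to 0.28. The CPM of the groups did not overlap for 8 of the 10, a pattern found for 50.6% of all genes tested. All 10 passed the filter on low counts.

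**Figure D1:**
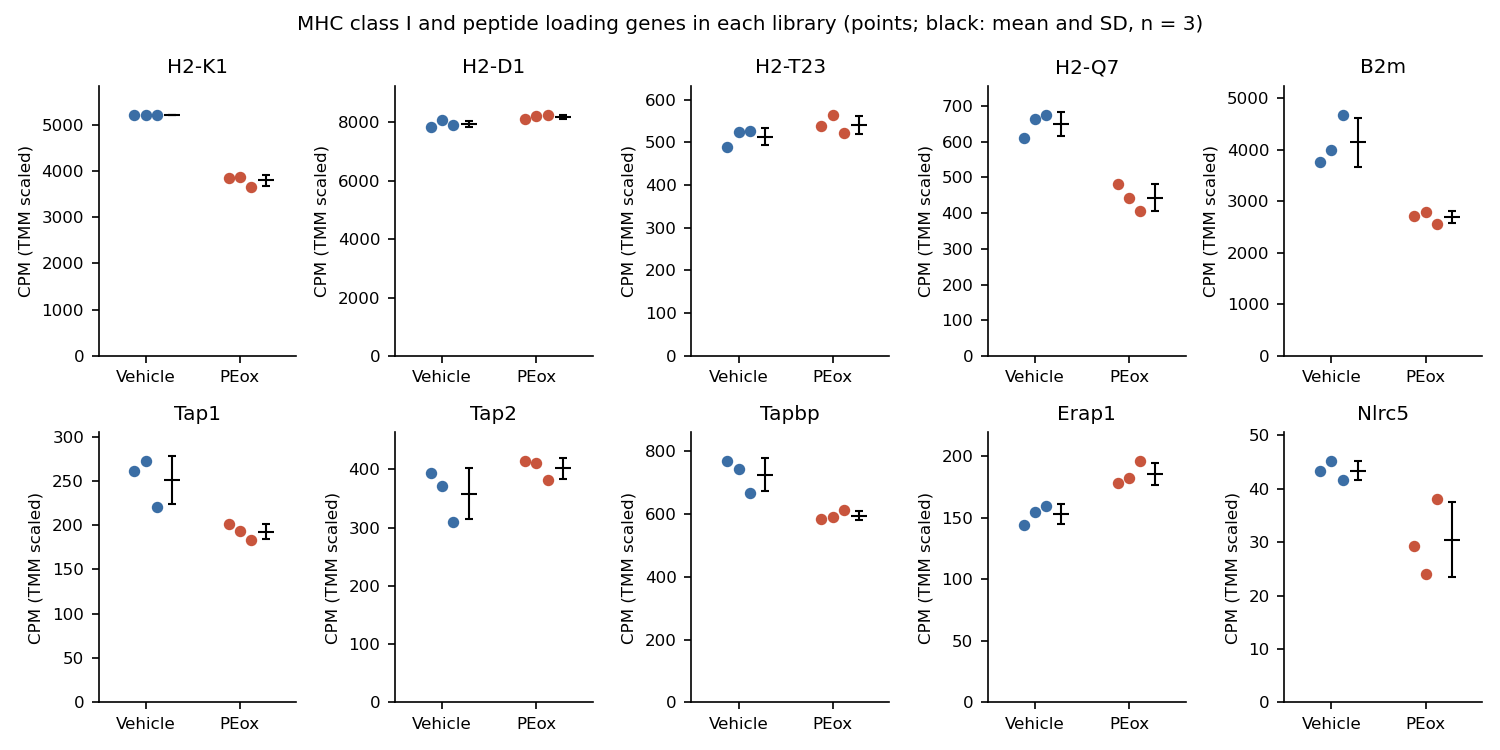
Level of each of the 10 genes in CPM (TMM scaled, axes from 0) in the 3 vehicle and 3 PEox libraries, with mean and SD in black. B2m, H2-K1, H2-Q7, Tap1, Tapbp and Nlrc5 are lower in every PEox library than in any vehicle library, Erap1 and H2-D1 are higher in every PEox library, and H2-T23 and Tap2 overlap.

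The heavy chains are encoded within the H2 complex on chromosome 17, where H2-K1 and H2-D1 are the classical class I genes that present peptides to CD8 T cells. H2-K1 stood at 5200, 5207 and 5211 CPM in vehicle libraries 1 to 3 and at 3846, 3878 and 3662 CPM in PEox libraries 1 to 3. All PEox libraries lay below all vehicle libraries, and the level fell by 27.1%, a log2 change of -0.46 (SE 0.03, adjusted p by edgeR 2.12e-05). H2-D1 stood at 7847, 8077 and 7915 CPM in vehicle and at 8100, 8208 and 8256 CPM in PEox. The groups were apart by a narrow margin, and the log2 fold change of 0.04 ± 0.03 (SE) did not pass (edgeR adjusted p = 0.256).

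H2-T23 encodes the non-classical molecule that shows leader peptides of other class I chains to CD94/NKG2 receptors. It stood at 490.1, 523 and 526 CPM in vehicle and at 537, 564 and 523 CPM in PEox. The groups overlapped, with a log2 change of 0.08 (SE 0.05, adjusted p by edgeR 0.259). H2-Q7, a gene of the Qa-2 antigen, stood at 612, 663 and 675 CPM in vehicle and at 482, 442 and 405 CPM in PEox. Every PEox library was below every vehicle library, with a log2 change of -0.55 (SE 0.07, adjusted p by edgeR 0.000428).

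The promoters of H2-K1 and H2-D1 are shown because H2-K1 fell and H2-D1 did not pass the test, with those of H2-Q7 and B2m, which fell, for comparison. Each sequence is the 250 bases before the transcription start, 5′ to 3′ on the coding strand, from RefSeq on GRCm38.p6: chr17:34000348-34000597, minus strand for H2-K1, chr17:35262844-35263093, plus strand for H2-D1, chr17:35438905-35439154, plus strand for H2-Q7 and chr2:122147437-122147686, plus strand for B2m. Capitals mark matches on either strand to 4 motifs: the core of the enhancer A site of class I genes, which NF-κB binds (GGGANTCCC), the core bound by interferon regulatory factors (AANNGAAA), the site core of the CREB and ATF family (TGACG) and the CCAAT box (CCAAT), with N for any base. No matches overlapped.
H2-K1: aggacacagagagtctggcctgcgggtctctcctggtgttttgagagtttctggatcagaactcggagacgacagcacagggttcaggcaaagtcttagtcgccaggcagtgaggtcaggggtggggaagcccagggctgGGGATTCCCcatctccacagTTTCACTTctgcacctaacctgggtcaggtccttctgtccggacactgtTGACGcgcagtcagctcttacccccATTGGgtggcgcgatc
H2-D1: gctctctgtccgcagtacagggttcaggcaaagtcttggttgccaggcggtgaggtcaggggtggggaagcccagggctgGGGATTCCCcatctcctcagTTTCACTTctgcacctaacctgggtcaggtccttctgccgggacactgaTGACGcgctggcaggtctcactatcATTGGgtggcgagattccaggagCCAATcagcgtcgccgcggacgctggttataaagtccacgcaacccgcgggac
H2-Q7: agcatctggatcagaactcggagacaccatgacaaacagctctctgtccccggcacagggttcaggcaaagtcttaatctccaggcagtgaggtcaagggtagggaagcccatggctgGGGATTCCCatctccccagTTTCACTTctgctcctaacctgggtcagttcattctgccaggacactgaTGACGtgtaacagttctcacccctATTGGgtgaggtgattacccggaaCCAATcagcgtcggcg
B2m: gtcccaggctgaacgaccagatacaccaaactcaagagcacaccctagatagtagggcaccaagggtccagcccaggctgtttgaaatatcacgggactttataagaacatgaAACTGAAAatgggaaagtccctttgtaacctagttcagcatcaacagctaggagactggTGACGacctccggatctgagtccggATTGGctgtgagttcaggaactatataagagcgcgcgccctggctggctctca

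H2-K1 and H2-D1 held all 4 motifs at the same spacing: in both, the AANNGAAA core began 20 bases, the TGACG core 69 bases and the first CCAAT box 94 bases after the first base of the enhancer A core. H2-D1 held a further CCAAT box at -53 from the start, with its enhancer A core at -170. The H2-K1 core began at -110, so the H2-K1 window ended before the same spacing was reached. H2-Q7 also held all 4 motifs, with 2 CCAAT boxes, and B2m held 1 match each to AANNGAAA, TGACG and CCAAT but none to the enhancer A core. Of the other genes, H2-T23 held 2 AANNGAAA cores and 1 CCAAT box, Tap1 held 1 TGACG core and 1 CCAAT box, Tapbp held 2 CCAAT boxes and Erap1 held none of the 4 motifs. RefSeq windows were matched for 8 of the 10 genes, all but Tap2 and Nlrc5. Among 27025 promoter windows of the same length, the first listed for each gene, the enhancer A core was found in 0.64%, AANNGAAA in 21.6%, TGACG in 17.9% and CCAAT in 34.5%. A match describes letters and is not evidence of binding. The lack of an enhancer A core, as in B2m, does not show that NF-κB sites are absent. Only exact matches to GGGANTCCC were counted, and other forms of such sites were not.

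B2m encodes the light chain β2-microglobulin, shared by all of these heavy chains, and lies outside the H2 complex on chromosome 2. It stood at 3759, 3999 and 4675 CPM in vehicle and at 2723, 2798 and 2557 CPM in PEox. Every PEox library lay below every vehicle library, although the vehicle libraries were spread widely. B2m fell by 35.0%, a log2 change of -0.62 (SE 0.08, adjusted p by edgeR 0.000406), the lowest of the 10.

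Tap1 and Tap2 encode the subunits of the peptide transporter. Tap1 stood at 261, 272 and 220.4 CPM in vehicle and at 201, 194 and 184 CPM in PEox. Its groups did not overlap, with a log2 change of -0.38 (SE 0.08, adjusted p by edgeR 0.00678). Tap2 stood at 394, 371 and 310.1 CPM in vehicle and at 414, 412 and 382 CPM in PEox. Its groups overlapped, with a log2 change of 0.17 (SE 0.09, adjusted p by edgeR 0.177).

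Tapbp encodes tapasin, the chaperone that holds heavy chains at the transporter. It stood at 767, 741 and 665 CPM in vehicle and at 583, 590 and 611 CPM in PEox. The groups were apart, with a log2 change of -0.28 (SE 0.06, adjusted p by edgeR 0.00488). Erap1 encodes the aminopeptidase that trims peptides in the endoplasmic reticulum and lies outside the H2 complex, on chromosome 13. It stood at 144, 155 and 159.7 CPM in vehicle and at 178, 182 and 196 CPM in PEox. All PEox libraries lay above all vehicle libraries, and Erap1 rose by 21.3%, a log2 change of 0.28 (SE 0.06, adjusted p by edgeR 0.00795).

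Nlrc5 encodes the transactivator of class I promoters and had the lowest counts of the 10, between 1424 and 2758 per library. It stood at 43.4, 45.1 and 41.6 CPM in vehicle and at 29.3, 24.1 and 38.03 CPM in PEox. PEox library 3 came close to the vehicle libraries without overlapping them. The log2 change was -0.51 (SE 0.16, adjusted p by edgeR 0.035). That call was lost when any library other than PEox library 3 was left out (edgeR adjusted p = 0.0999, 0.118 and 0.0758 without vehicle libraries 1, 2 and 3, and 0.0849 and 0.0637 without PEox libraries 1 and 2).

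Several of these values moved with the scaling or with removal of each library's trend on transcript length and GC content. With library size scaling, which moved the median of all genes to 0.14, the log2 fold change was -0.15 for Tapbp (edgeR adjusted p = 0.0687), -0.37 for Nlrc5 (0.105) and -0.25 for Tap1 (0.0401), and H2-D1 (0.18, adjusted p = 0.001), H2-T23 (0.21, adjusted p = 0.00783) and Tap2 (0.30, adjusted p = 0.0206) were called higher. With the trend removed, the rise of Erap1 shrank to 0.08 (edgeR adjusted p = 0.219), the falls of H2-K1 and H2-Q7 to -0.24 and -0.31, Nlrc5 lay at -0.76, and H2-D1 (0.14, adjusted p = 0.00508) and H2-T23 (0.30, adjusted p = 0.00175) were called higher.

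**Figure D2:**
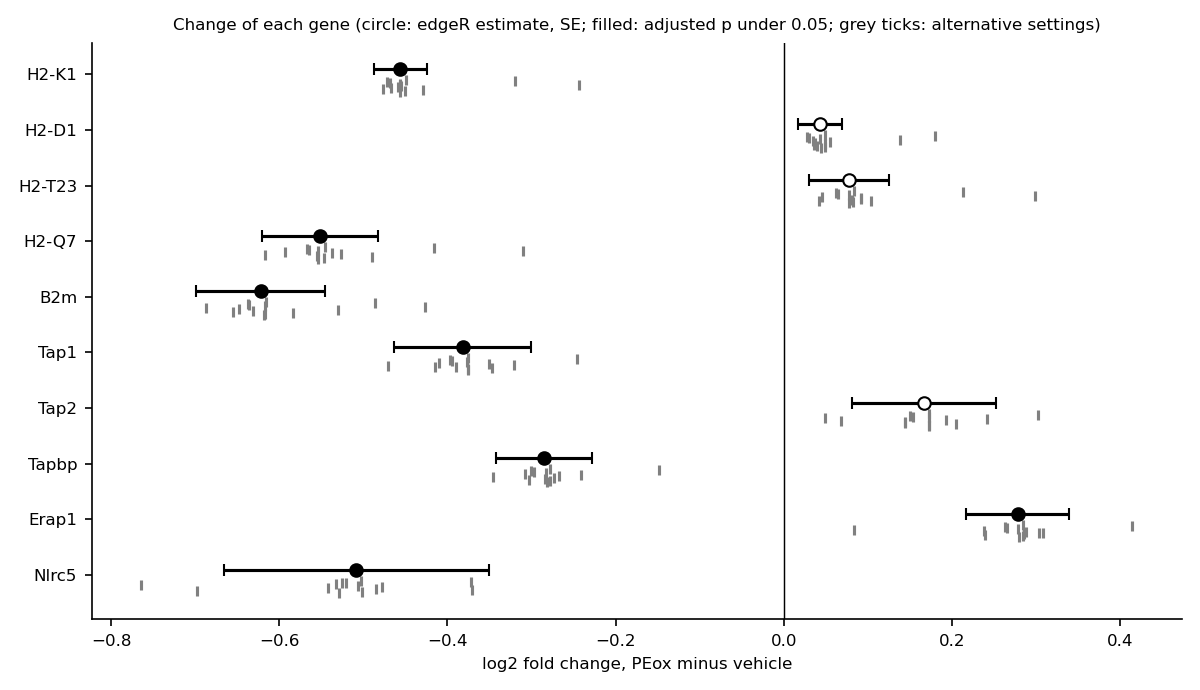
Log2 fold change of PEox minus vehicle for the 10 genes, as circles with SE (filled where the edgeR adjusted p was under 0.05), with grey ticks for the 14 alternative settings. No tick lies on the other side of 0 from its circle, and the ticks of Nlrc5 spread most, from -0.76 to -0.37.

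Ratios between genes of the same library do not depend on library scaling, and 6 were compared by a two-sided exact permutation test, which cannot go below p = 0.1 with 3 libraries against 3. H2-D1 held 1.51, 1.55 and 1.52 counts per count of H2-K1 in vehicle and 2.11, 2.12 and 2.25 in PEox. All PEox libraries lay above all vehicle libraries, a ratio 1.41 times as high (exact p = 0.1, adjusted p = 0.15). Within the summed counts of the 4 heavy chains, H2-D1 took 55.2% to 55.8% in vehicle and 62.5% to 64.3% in PEox, while H2-K1 took 36.0% to 36.8% and 28.5% to 29.7%. The ratio of H2-T23 to H2-K1 was likewise apart, at 0.0942, 0.10 and 0.101 in vehicle and 0.14, 0.145 and 0.143 in PEox (exact p = 0.1, adjusted p = 0.15).

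B2m gave 0.266, 0.276 and 0.326 counts per heavy chain count in vehicle and 0.21, 0.214 and 0.199 in PEox, with the groups apart (exact p = 0.1, adjusted p = 0.15). Tap1 gave 0.663, 0.733 and 0.711 counts per count of Tap2 in vehicle and 0.486, 0.47 and 0.481 in PEox, also apart (exact p = 0.1, adjusted p = 0.15). The light chain was thus lower relative to its heavy chains, and the transporter subunits were farther apart in PEox. The ratios of H2-Q7 to H2-K1 and of Tapbp to the heavy chains overlapped between the groups, with log2 differences of -0.10 and -0.14 (exact p = 0.2, adjusted p = 0.2 for each).

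**Figure D3:**
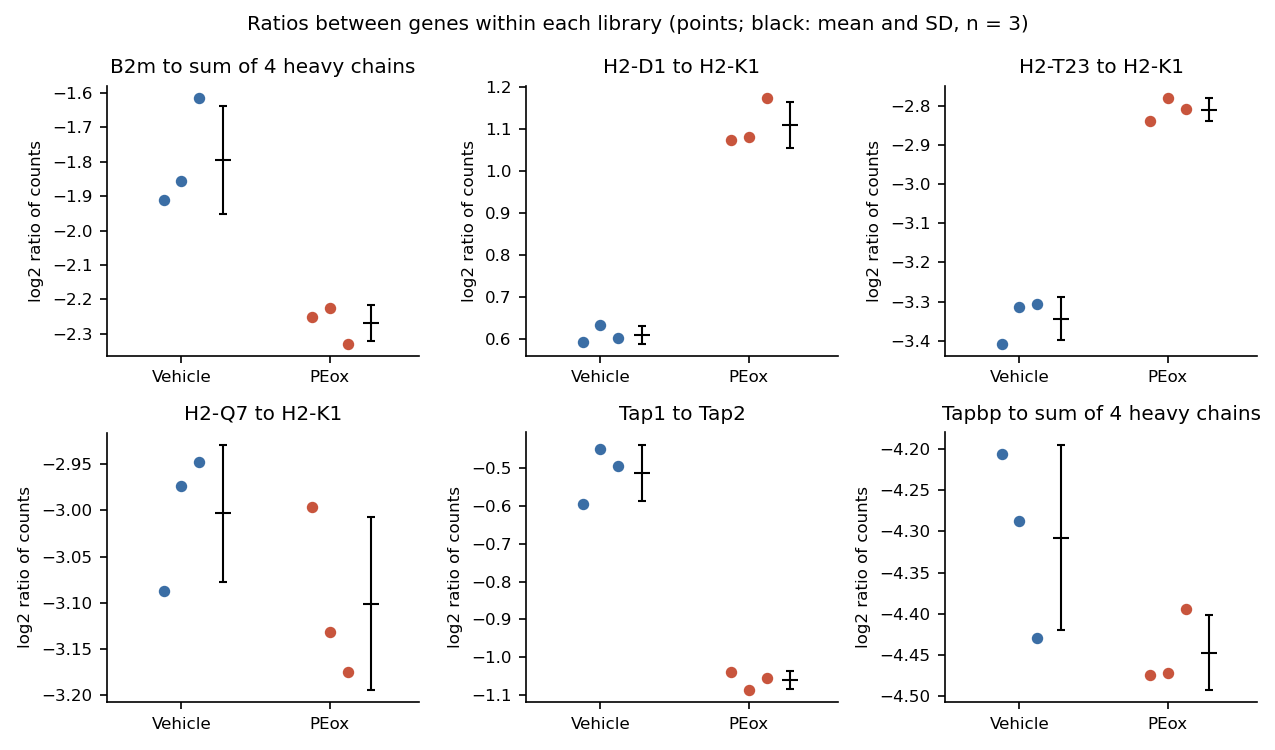
Log2 ratio of counts between genes within each library, in 3 vehicle and 3 PEox libraries, with mean and SD in black. The groups are apart for B2m to the heavy chains, H2-D1 to H2-K1, H2-T23 to H2-K1 and Tap1 to Tap2, and overlap in the remaining panels.

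Heavy chain genes are close relatives, and how reads that fit several of them were counted is not given in the sources used here. Of the windows of 150 bases, the read length, in the H2-K1 transcripts of GENCODE M21, 0% also occurred in a transcript of another gene. The share was 1.79% for H2-D1 (with H2-Q1), 0.831% for H2-T23 (with Gm7030) and 8.31% for H2-Q7 (with H2-Q6 and H2-Q5). Exact matches alone were counted, so reads placed with mismatches are not covered. The listed heavy chain genes H2-Q8, H2-Q9, H2-T9 and H2-L matched no row of the count table. H2-Q6 and H2-Q7 together reached 1348 ± 27.3 CPM with vehicle and 984 ± 85.2 with PEox (mean ± SD, 3 libraries a group). Summed over the 4 heavy chains the level was 14315 ± 161 CPM in vehicle and 12968 ± 124 in PEox, and over all 19 H2 class I heavy chain genes of the table that were listed it was 15535 ± 151 and 13973 ± 168 (mean ± SD, 3 libraries a group). Outside the heavy chains, 12.5% of the Erap1 windows occurred in Cast, the calpastatin gene, 8.28% of the Tapbp windows in Gm19412 and 2.13% of the Tap1 windows in Psmb9. Cast, named for this overlap, rose from 126 ± 4.97 to 181 ± 16.7 CPM (mean ± SD, 3 libraries a group, adjusted p by edgeR 0.000796), and Psmb9 fell from 122 ± 6.92 to 75.0 ± 3.13 CPM (edgeR adjusted p = 0.000105). Strand use in the counting is not given in the sources used here, and reads of such overlaps cannot be assigned to either gene.

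Per kilobase of transcript, B2m stood highest of the 10 in vehicle, at 4819 ± 552 CPM per kb (SD, n = 3), and was followed by H2-D1 at 3780 ± 56.2 and H2-K1 at 3319 ± 3.31. Then came H2-Q7 at 446 ± 23.03 CPM per kb, H2-T23 at 349 ± 13.6 and Tapbp at 264 ± 19.3. Tap2 at 104 ± 12.6 and Tap1 at 90.3 ± 9.77 CPM per kb were neighbours whose libraries overlapped, and the libraries of every other pair of neighbours did not. Erap1 stood at 27.1 ± 1.43 and Nlrc5 at 7.54 ± 0.31 CPM per kb. In PEox the order changed at 2 places. H2-D1 at 3895 ± 38.04 CPM per kb stood above B2m at 3131 ± 143, and H2-T23 at 368 ± 14.3 stood above H2-Q7 at 304 ± 26.3 (mean ± SD, 3 libraries a group). Lengths were the median of GENCODE's basic protein-coding transcripts and need not be those used in these cells.

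**Figure D4:**
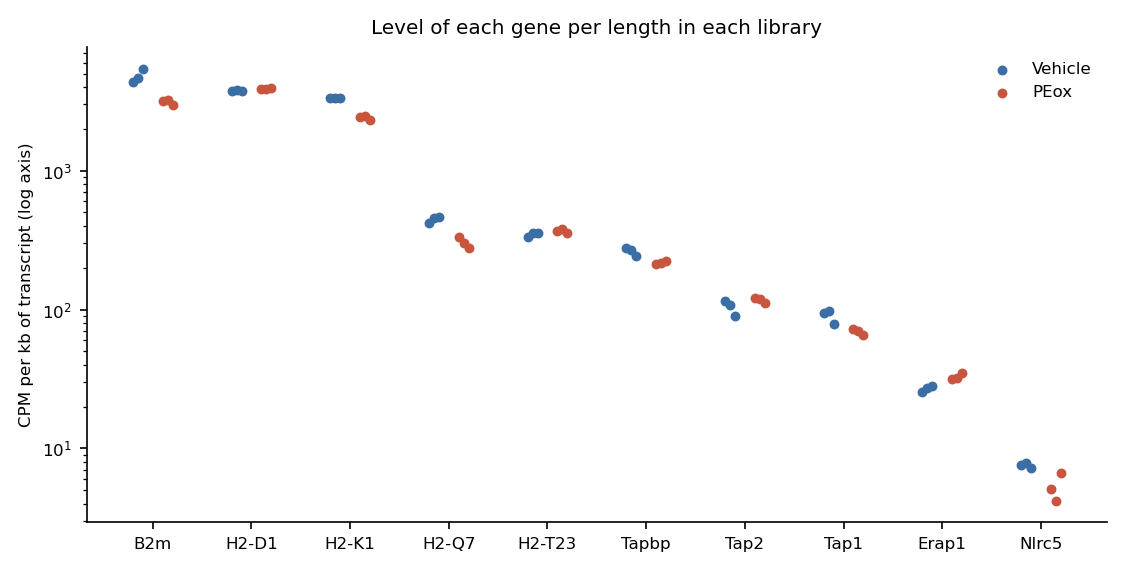
Level of each gene in CPM per kb of transcript on a log axis, by library, ordered by the vehicle mean. In vehicle B2m stands above H2-D1 and H2-Q7 above H2-T23, and in PEox the order within each of these pairs is reversed.

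The rest of the pathway was described from 5 lists with 78 genes tested in all, of which 30 fell, 23 rose and 25 did not pass, beside 18.8% lower and 18.3% higher over all genes. Other class I heavy chain genes went both ways. Of 17 tested 6 fell, 3 rose and 8 did not pass. Their log2 fold changes had a median of -0.23 and ran from -3.84 to 1.27. The larger of the called falls lay in genes of lower level that are not named here. H2-Q6, a further Qa-2 gene, fell from 698 ± 9.82 to 540.4 ± 50.1 CPM (mean ± SD, 3 libraries a group, adjusted p by edgeR 0.00277), H2-Q5 fell by 0.48 and H2-M3, which presents formylated peptides, by 0.42 on the log2 scale. These falls of H2-Q6, H2-Q5 and H2-M3 did not pass with the length and GC trend removed (-0.14, -0.13 and -0.22, edgeR adjusted p = 0.108, 0.159 and 0.0685). Cd1d1, which presents lipids to natural killer T cells, rose from 24.4 ± 2.12 to 46.7 ± 1.48 CPM (edgeR adjusted p = 0.000156). Mr1, which presents metabolites to mucosal-associated invariant T cells, rose from 20.7 ± 0.985 to 49.7 ± 4.36 CPM (mean ± SD, 3 libraries a group, adjusted p by edgeR 3.83e-05). H2-T22 rose by 0.29, and H2-Q1 (-0.11) and H2-T10 (0.52) did not pass (edgeR adjusted p = 0.371 and 0.096). H2-T10 passed without PEox library 1 (adjusted p = 0.0386), with library size scaling (0.0418), with the filter of 5 CPM in 3 libraries (0.0357) and after removal of the length and GC trend (0.032).

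Chaperones and channel proteins of the endoplasmic reticulum split evenly: 6 of 15 fell, 6 rose and 3 did not pass, at a median of -0.18. The loading complex members Pdia3 (ERp57) and Calr (calreticulin) fell from 1606 ± 70.4 to 1277 ± 98.2 CPM and from 503 ± 17.3 to 348 ± 25.4 CPM (mean ± SD, 3 libraries a group, adjusted p by edgeR 0.00311 and 0.000265). Canx (calnexin), which receives new heavy chains, rose by 0.38, the chaperone gene Hspa5 by 0.27, Bcap31, a sorting receptor of the endoplasmic reticulum, by 0.16 and the channel gene Sec61a1 by 0.56 on the log2 scale. Without the length and GC trend Canx lay at 0.23 and Hspa5 at 0.16 and neither passed (edgeR adjusted p = 0.0549 and 0.139). The call of Hspa5 was also lost without vehicle library 2 or PEox library 1 (0.0617 and 0.0567), and that of Bcap31 when vehicle library 2 (0.083), PEox library 1 (0.0742) or PEox library 2 (0.0553) was left out, and without the low-count filter (0.0567). Pdia4 (-0.07) and Uggt1 (-0.25) did not pass (edgeR adjusted p = 0.491 and 0.0544). Uggt1 passed without PEox library 1 (-0.33, adjusted p = 0.0272), after removal of the length and GC trend (-0.47, adjusted p = 0.0039), with the filter of 5 CPM in 3 libraries (0.0114), with DESeq2 (0.0201) and with limma-voom (0.0425).

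Genes of peptide supply in the cytosol were mostly lower: 9 of 15 fell, 3 rose and 3 did not pass, at a median of -0.44. The interferon-inducible proteasome subunit gene Psmb8 fell from 1209 ± 6.53 to 616 ± 22.2 CPM and Psmb10 from 490.2 ± 4.24 to 235 ± 15.4 CPM (mean ± SD, 3 libraries a group, adjusted p by edgeR 1.64e-06 and 5.07e-06). Psme1 and Psme2, subunits of the proteasome activator PA28, fell by 0.91 and 1.06 in log2 units. The constitutive subunit genes Psmb6 and Psmb5 fell by 0.65 and 0.44 in log2 units, the latter at -0.03 with the length and GC trend removed (edgeR adjusted p = 0.727). The peptidase gene Blmh fell by 0.41, and Psme3, of a nuclear activator, did not pass (-0.06, edgeR adjusted p = 0.38).

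Regulators of class I promoters had a median of -0.10, and 6 of 18 fell, 3 rose and 9 did not pass. Irf1, an interferon-induced transcription factor gene, fell from 321 ± 2.17 to 176 ± 4.24 CPM (mean ± SD, 3 libraries a group, adjusted p by edgeR 4.48e-06). Irf8 fell by 0.73 and Nfyc, a subunit of the CCAAT-binding factor, by 0.45 on the log2 scale. Nfkb1, a subunit of NF-κB, rose by 0.48 and Rfxank, of the RFX complex that NLRC5 works with, by 0.24, a call lost without the low-count filter (edgeR adjusted p = 0.0592) and when any library other than PEox library 1 was left out (0.0515 to 0.11). The NF-κB subunit gene Rela (-0.03) and the Polycomb gene Eed (-0.07) did not pass (edgeR adjusted p = 0.778 and 0.588).

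Genes of interferon and JAK-STAT signalling were more often higher than lower. Of 14 genes 8 rose, 4 fell and 2 did not pass, with a median of 0.40. Ifngr1 and Ifngr2, the chains of the interferon gamma receptor, rose from 767 ± 57.7 to 1249 ± 23.4 CPM and from 69.6 ± 0.25 to 101 ± 2.66 CPM (mean ± SD, 3 libraries a group, adjusted p by edgeR 4.11e-05 and 0.000194). The kinase gene Jak1 rose by 0.54 and the feedback inhibitor gene Socs1 by 0.40, while the phosphatase gene Ptpn2 fell by 0.33 on the log2 scale. Socs3 (0.08) and Ifnar2 (0.12) did not pass (edgeR adjusted p = 0.412 and 0.337). Beside these lists, all 12 class II presentation genes tested fell, against 18.8% of all genes tested. Their median was -1.12, with values from -3.06 to -0.72. Cd74, the invariant chain, fell by 1.34 and H2-Ab1, a class II β chain, by 1.04 on the log2 scale, and the difference between the classes was not tested. Of the 15 ILC3 markers 8 fell and 4 rose. The summed markers of B cells, of myeloid and dendritic cells and of ILC3s were all lower in PEox. Their part in the falls of class II genes was not tested.

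**Figure D5:**
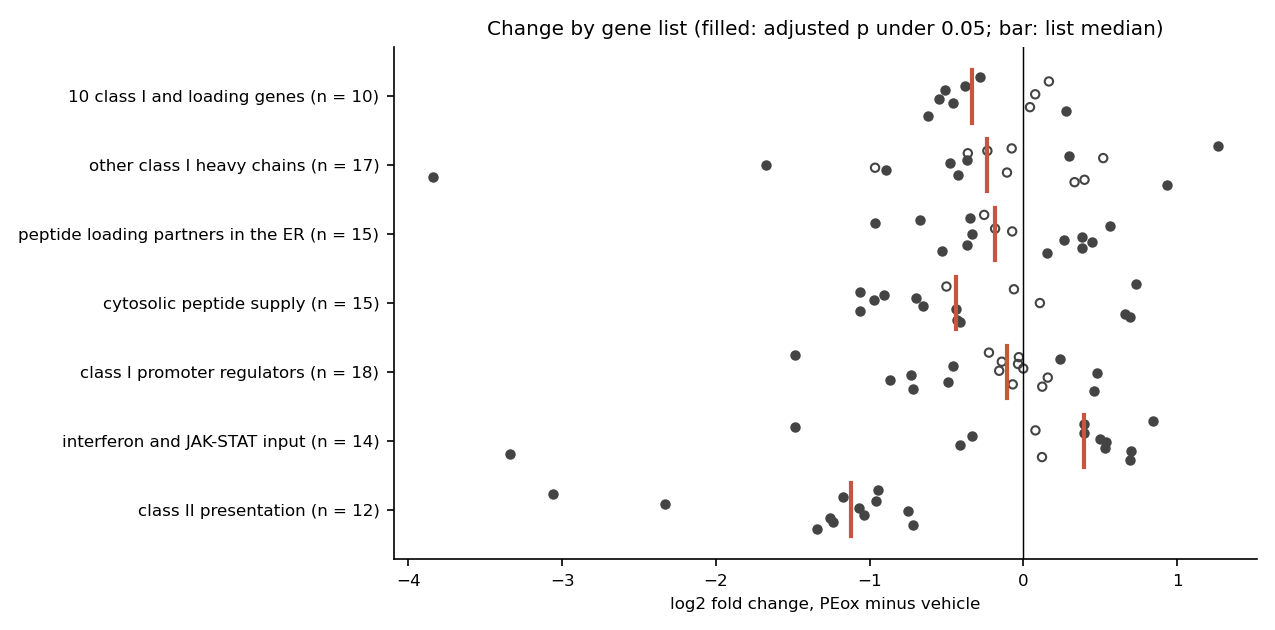
Log2 fold change of PEox minus vehicle for the tested genes of each list, filled where the edgeR adjusted p was under 0.05, with the list median as a bar. Class II genes lie wholly below 0 (median -1.12), the 10 class I and loading genes lie on both sides (median -0.33), and interferon and JAK-STAT genes lie mostly above 0 (median 0.40).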

How the data were processed

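Total RNA of 6 libraries was measured by RNA-seq. The deposited values were raw counts per Ensembl gene, whole numbers that the authors had not normalized. Per the labels' protocols, reads were cleaned with fastp and aligned with HISAT2 2.0.5, and edgeR 3.22.5 is listed, per the submitters' processing notes. Counter, annotation and genome build are not given in the sources used here. Columns were matched to samples by title, with 0 columns of samples unused. Symbols came from a reference table that named 55141 of 55401 identifiers, and the unnamed ones held 0.015% to 0.0191% of counts.

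Counts were fitted in R 4.3.3 with edgeR 4.0.16 (filterByExpr, TMM factors 0.951 to 1.05, robust quasi-likelihood test, group as single term). Genes were called at an adjusted p under 0.05, and each standard error was taken as the size of the log2 change over the square root of F. The common biological coefficient of variation was 34.5%. A depth of 3 counts equals 0.0449 to 0.0533 CPM, a limit that covers counting error alone, as no molecular identifiers are described that would mark PCR copies. No libraries of a group agreed within sampling noise (chi-square per gene 16.5 to 38.2, against 263 to 338 between groups), so none was merged as a library deposited again. This does not show that they are biological replicates.

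The 10 genes and all lists were chosen with earlier results of these data known. Of the lists, all tested genes were eligible to be named, or the 8 with the highest mean CPM where more than 8 were tested, whatever their change. Cast, Psmb9, Ifng, Cd8b1, Pecam1, Krt8, Krt18, Il22, Trbc1, Trbc2, Cd3g and genes at or near 0 were named after their values were seen. A longer form of the enhancer A motif, searched first, matched H2-K1 and H2-D1 but not H2-Q7, and the shorter core was adopted afterwards. The interferon and CREB motifs were likewise shortened to their cores after longer forms had been searched. Marker lists were used as sums, apart from the genes named after their values were seen, with Epcam given as the marker in the protocol. Some list symbols (6) matched no row. Not every gene the rule names is reported here. In simulated counts for PEox against vehicle (18599 genes tested, dispersion 0.02), the procedure recovered 96% of 100 genes changed by 1 and 20% of 100 changed by 0.5 on the log2 scale, and called 6 of 18399 unchanged genes. The simulation used that dispersion for every gene and changed 200 genes. The data had a common coefficient of variation of 34.5% and 37.1% of genes called, so these rates do not carry over to them. Alternatives were RLE and library size scaling, no filter, a filter of 5 CPM in 3 libraries, replicate blocks, leaving out each library, DESeq2 1.42.0, limma-voom (limma 3.58.1), and removal of length and GC trends (loess, span 0.5; 99.9% of tested genes had a length).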

Additional observations from a re-analysis of the deposited data

How the results depend on the processing

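Across 14 alternative settings the sign of each of the 10 log2 fold changes was kept, and the calls of H2-K1, H2-Q7, B2m and Tap1 were kept in all 14. The number of the 10 genes called lower was 6 in the edgeR fit and ran from 4 (library size scaling) to 6, with 5 to 6 over the fits that lacked a single library. The number called higher was 1 and became 4 with library size scaling, 2 with the length and GC trend removed and 2 with limma-voom, where H2-D1 passed at 0.04 (limma adjusted p = 0.0306). Library size scaling also moved the share of higher among all called genes from 49.3% to 61.9%. Of the 78 other pathway genes, 27 to 33 were called lower and 19 to 29 higher. Pairing of same-numbered libraries was neither shown nor excluded. The correlations of their deviations were small, at 0.0125 to 0.0292, although each library correlated best with its own number. With the replicate number as a block 6 of the 10 genes were called lower and 1 higher, and 3141 and 3018 genes were called lower and higher over the whole table, against 3438 and 3337. Over the fits that lacked a single library, the log2 ratio differences ran from 0.47 to 0.52 for H2-D1 to H2-K1, from -0.59 to -0.52 for Tap1 to Tap2 and from -0.53 to -0.39 for B2m to the heavy chains. With the longest transcript as length, H2-K1 stood at 3215 and Nlrc5 at 5.72 CPM per kb in vehicle. The number of receptor genes called lower, examined after seeing the data, was 8 and became 5 with the replicate block, 5 with the length and GC trend removed and 3 with the filter of 5 CPM in 3 libraries, which tests fewer genes, and ran from 5 to 8 over the fits that lacked a single library.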

Other observations

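A list of class I receptors and related receptors of lymphocytes was lower in part. Of 12 genes tested 8 fell and 4 did not pass, beside 18.8% lower and 18.3% higher over all genes tested. With the replicate block 5 fell, as the calls of Klra5, Klra7 and Cd8b1 were lost (edgeR adjusted p = 0.0671, 0.0565 and 0.0603). Without vehicle library 2 those same calls were lost and 5 fell (edgeR adjusted p = 0.109, 0.0528 and 0.0757). Cd8b1 was also lost without the low-count filter (0.0743), with the length and GC trend removed (0.0512) and without vehicle library 1 or 3 or PEox library 1 or 2 (0.0739 to 0.196). Lilrb4a, the gene of an inhibitory receptor not established as a class I receptor, fell from 461 ± 14.1 to 122 ± 6.43 CPM and Cd160, a receptor gene of intestinal lymphocytes, from 79.2 ± 5.46 to 26.8 ± 4.13 CPM (mean ± SD, 3 libraries a group, adjusted p by edgeR 5.02e-07 and 3.44e-05). Klrd1 (CD94), which pairs with NKG2 chains to bind the H2-T23 product, fell from 5.83 ± 1.02 to 1.98 ± 0.795 CPM (edgeR adjusted p = 0.00865). Its partners Klrc1 and Klrc2 did not pass, at log2 fold changes of -0.32 and -0.40 (edgeR adjusted p = 0.132 and 0.368). Klrk1 (NKG2D) fell by 0.38 on the log2 scale, a call lost with library size scaling (edgeR adjusted p = 0.0707) or after removal of the length and GC trend (0.0693). Klra5 lay at 1.72 ± 0.391 and 0.693 ± 0.225 CPM (edgeR adjusted p = 0.045), a call lost with library size scaling, without the low-count filter, with the replicate block, with the length and GC trend removed and when any library other than PEox library 3 was left out, and Pirb did not pass (-0.36, adjusted p = 0.429). Cd8a and Klra7, the tested genes with no count in any PEox library, lay at 0.987 ± 0.293 and 0.398 ± 0.123 CPM in vehicle. The summed ILC1 and natural killer markers were also lower in PEox, and their part in these values was not tested.

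Ifng, the interferon gamma gene, fell from 16.7 ± 1.04 CPM to 1.65 ± 0.648 CPM (mean ± SD, 3 libraries a group, adjusted p by edgeR 8.85e-05), while the receptor genes Ifngr1 and Ifngr2 were higher.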
